A study of Mus musculus with 6 samples.

Results

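The imprinted Dlk1-Meg3 domain of mouse chromosome 12 was described through 4 of its genes, Dlk1, Meg3, Rian and Mirg, in FLK1+ mesodermal cells with and without Scl. The 4 genes were selected on measured values: earlier results from the same libraries, with Meg3, Rian and Mirg among the genes of highest difference between Scl-/- and wild-type (WT) cells, were known when they were chosen. They are 4 of the 14005 genes in the expression table. Dlk1 and Meg3 were found by gene symbol, whereas Rian and Mirg carry no symbol in the table and were found by their Ensembl identifiers. Because the choice used the contrast between WT and Scl-/-, every difference of these 4 genes between the groups is a description and was not tested.

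FLK1+ cells were taken at day 3.5 from embryoid bodies, the aggregates in which stem cells differentiate, and their RNA was sequenced in 3 independent differentiations of mouse embryonic stem (ES) cells, which gave 3 WT and 3 Scl-/- libraries. FLK1, encoded by Kdr, is a receptor for VEGF, here the surface protein used for sorting, and SCL, encoded by Scl (Tal1), is the transcription factor that blood formation requires. WT cells were of the J1 ES line and Scl-/- cells of an ES line with both Scl alleles disrupted, so that genotype and cell line cannot be told apart in any comparison here. The titles of the Scl-/- samples carry the label J1 as well. The strain label was C57Bl/6 X Sv129 for WT replicates 1 and 2 and Scl-/- replicate 1, C57Bl/6 X Sv131 for WT replicate 3, C57Bl/6 X Sv130 for Scl-/- replicate 2 and C57Bl/6 X Sv132 for Scl-/- replicate 3. The labels are given as printed. Whether their differing numbers stand for differences of strain is not known, and the paper names J1 as the WT line.

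In an imprinted domain, genes are expressed from the maternal or the paternal chromosome only, as set by DNA methylation that differs between the parental copies of a control region. In the Dlk1-Meg3 domain the paternal copy expresses the protein-coding genes Dlk1 and Rtl1, and the maternal copy expresses long noncoding RNAs, among them Meg3, Rian and Mirg, which host clusters of small nucleolar RNAs and microRNAs. Methylation of the control region on the maternal copy is known to silence the noncoding RNAs, and ES cell lines are known to differ in this state. Methylation and the parental origin of reads were not analysed here.

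Tal1, the targeted gene, measured 303, 182 and 306 CPM (depth-scaled counts) in the WT libraries of replicates 1 to 3 (WT 1 to 3) against 9.35, 5.68 and 5.87 CPM in the Scl-/- libraries (Scl-/- 1 to 3). Every library therefore stood on the side of its genotype label. Kdr measured 868, 832 and 867 CPM in WT 1 to 3 against 724, 777 and 810 CPM in Scl-/- 1 to 3, so that the gene used for the sort was abundant in all 6 libraries. Reads on the listed genes numbered 39713877, 38623641 and 40769209 in WT 1 to 3 and 47621120, 42108168 and 43662177 in Scl-/- replicates 1 to 3.

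The start regions of the 4 genes are shown because Meg3, Rian and Mirg were higher, and Dlk1 lower, in Scl-/- cells. They come from RefSeq on build GRCm38.p6, all on the plus strand, and all 4 genes were matched by symbol. The windows of Meg3, Rian and Mirg hold 250 bases before and 50 bases after the start, and for the coding gene Dlk1 only the 250 bases before it are given. Capitals mark CANNTG (the E-box that SCL complexes bind), GATA (the site of GATA factors), TATAAA (the TATA box), CCAAT (the site of NF-Y) and TGCCGC (the site of ZFP57), searched on both strands. The windows are chr12:109452573-109452822 for Dlk1, chr12:109540746-109541045 for Meg3, chr12:109603695-109603994 for Rian and chr12:109734731-109735030 for Mirg.
Dlk1: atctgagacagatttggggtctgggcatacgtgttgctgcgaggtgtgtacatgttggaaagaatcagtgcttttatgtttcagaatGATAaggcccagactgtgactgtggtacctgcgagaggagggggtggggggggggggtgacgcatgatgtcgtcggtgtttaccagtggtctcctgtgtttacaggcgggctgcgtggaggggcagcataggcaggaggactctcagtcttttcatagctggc
Meg3: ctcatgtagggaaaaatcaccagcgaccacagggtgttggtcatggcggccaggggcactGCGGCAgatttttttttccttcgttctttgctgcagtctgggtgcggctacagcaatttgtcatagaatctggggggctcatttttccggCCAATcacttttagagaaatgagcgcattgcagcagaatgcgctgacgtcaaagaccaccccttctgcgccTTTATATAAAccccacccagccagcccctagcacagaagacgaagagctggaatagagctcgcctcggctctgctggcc
Rian: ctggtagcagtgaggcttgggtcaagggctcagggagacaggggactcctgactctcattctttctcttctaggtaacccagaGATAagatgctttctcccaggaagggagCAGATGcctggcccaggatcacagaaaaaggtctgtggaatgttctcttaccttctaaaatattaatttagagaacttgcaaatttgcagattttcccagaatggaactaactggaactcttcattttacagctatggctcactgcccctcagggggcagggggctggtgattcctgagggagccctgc
Mirg: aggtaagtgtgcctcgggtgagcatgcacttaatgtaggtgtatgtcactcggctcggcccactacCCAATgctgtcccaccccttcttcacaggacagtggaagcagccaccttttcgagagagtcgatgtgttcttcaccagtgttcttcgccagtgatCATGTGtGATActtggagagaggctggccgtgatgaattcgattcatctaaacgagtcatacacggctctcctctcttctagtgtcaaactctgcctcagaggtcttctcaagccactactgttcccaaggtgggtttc

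The window of Meg3 held TATAAA on each strand, in matches that overlap and begin 29 and 25 bases before the start, together with CCAAT 100 bases and TGCCGC 190 bases before it. Among all 32851 RefSeq windows of 300 bases, 13.6% held TATAAA, 37.4% CCAAT and 11.6% TGCCGC. The window of Mirg held the E-box, the GATA site and CCAAT, and that of Rian held the E-box and the GATA site, motifs found in 72.3% (E-box) and 57.9% (GATA site) of all windows. The 250 bases before Dlk1 held GATA alone, which 53.6% of all such stretches held. The number of CG dinucleotides was 13 at Meg3, 10 at Mirg and 0 at Rian, against a median of 7 over all windows, and 8 before Dlk1, against a median of 6. RefSeq gives a second start for Meg3, whose window held 1 CG dinucleotide and 1 CANNTG. A match describes these letters only.

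Meg3, a long noncoding RNA of the maternal copy, measured 59.7, 71.1 and 27.5 CPM in WT 1 to 3 against 532.5, 444.8 and 342.1 CPM in Scl-/- 1 to 3. All Scl-/- libraries were above all WT libraries, and replicate 3 was the lowest of its group in both. The gene (Ensembl ENSMUSG00000021268) lies on chromosome 12 from 110779211 to 110809936 of mm9, on the plus strand. Its mean was 52.8 ± 22.6 CPM in WT cells (SD, n = 3) against 439.8 ± 95.3 CPM in Scl-/- cells (SD, n = 3), a ratio of 8.33 and a difference of 3.13 on the log2(CPM + 0.5) scale, with a standard error of 0.34. This was the highest difference among the 13991 genes tested.

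Rian, the noncoding RNA that hosts many of the small nucleolar RNAs of the domain, measured 42.8, 54.8 and 30.3 CPM in WT 1 to 3 against 308.7, 334.7 and 309.0 CPM in Scl-/- 1 to 3. The groups did not overlap, and on the log2 scale the Scl-/- libraries lay closer together than the WT libraries (SD of 0.07 against 0.43). Rian (ENSMUSG00000091793; chromosome 12 from 110842155 to 110899919) had a mean of 42.7 ± 12.3 CPM in WT cells (SD, n = 3) against 317 ± 14.9 CPM in Scl-/- cells (SD, n = 3), a difference of 2.92 on the log2 scale with a standard error of 0.20.

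Mirg, which hosts a cluster of microRNAs, measured 2.81, 2.22 and 1.87 CPM in WT 1 to 3 against 24.3, 16.9 and 20.9 CPM in Scl-/- 1 to 3. It was low in every WT library, where these values stood for 112, 85 and 77 reads, and the groups did not overlap. Mirg (ENSMUSG00000091158; chromosome 12 from 110973191 to 110987665) had a mean of 2.30 ± 0.475 CPM in WT cells (SD, n = 3) against 20.7 ± 3.73 CPM in Scl-/- cells (SD, n = 3), a difference of 2.92 on the log2 scale with a standard error of 0.20.

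Dlk1, the paternally expressed gene, encodes a membrane protein related to the NOTCH ligands and measured 74.9, 36.7 and 89.5 CPM in WT 1 to 3 against 21.0, 16.7 and 35.2 CPM in Scl-/- 1 to 3. Its groups did not overlap either, but WT replicate 2, the lowest of its group, stood only a little above Scl-/- replicate 3, the highest of the other. Dlk1 (ENSMUSG00000040856; chromosome 12 from 110691033 to 110701546) had a mean of 67.0 ± 27.3 CPM in WT cells (SD, n = 3) against 24.3 ± 9.70 CPM in Scl-/- cells (SD, n = 3), a difference of -1.42 on the log2 scale with a standard error of 0.38. Its difference was thus opposite in sign to those of the 3 noncoding genes.

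Non-overlapping groups were common in these data. Of all 13991 genes tested, 11.0% were higher in every Scl-/- library than in any WT library and 10.7% were lower. Since the 4 genes were chosen with this contrast known, nothing is read from their lack of overlap.

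**Figure D1:**
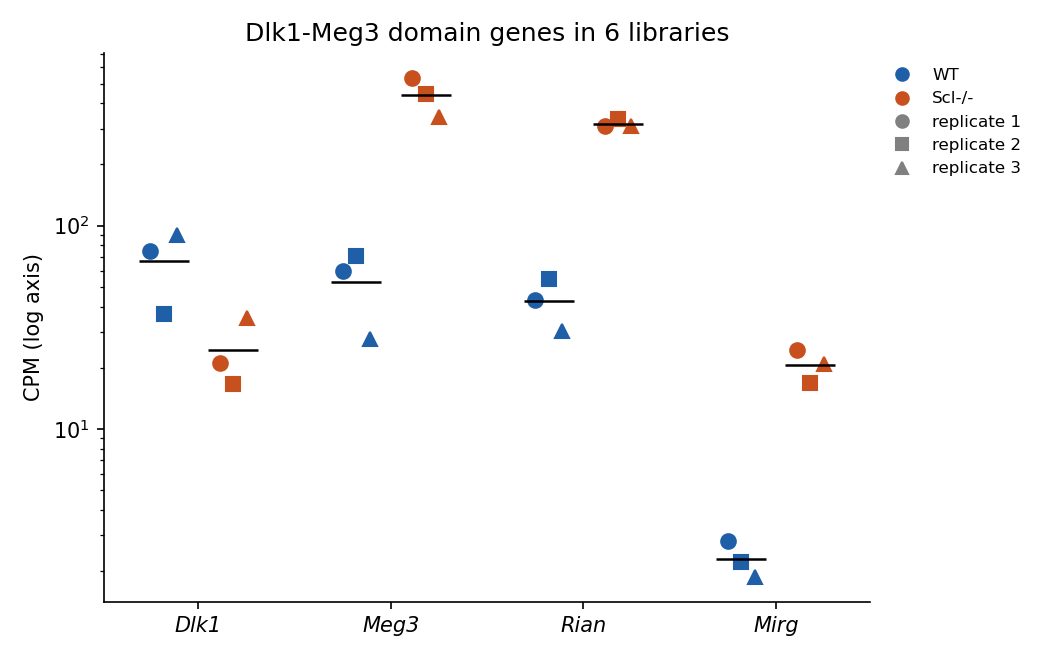
CPM of Dlk1, Meg3, Rian and Mirg in each library on a log axis, with WT in blue, Scl-/- in orange, the replicate number as the shape and the group mean as a black line. Meg3, Rian and Mirg are higher in all Scl-/- libraries, and Dlk1 is higher in all WT libraries, with a narrow gap between 36.7 and 35.2 CPM.

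Within same-numbered pairs, the differences had the same sign throughout. On the log2 scale, Meg3 differed by 3.15, 2.64 and 3.61 in pairs 1 to 3 and Rian by 2.83, 2.60 and 3.33. Mirg differed by 2.91, 2.67 and 3.18, and Dlk1 by -1.81, -1.12 and -1.33. Pair 3 had the highest difference and pair 2 the lowest for each of the 3 noncoding genes, while for Dlk1 pair 1 differed most.

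The libraries of a group varied in Dlk1 and Meg3 more than in most genes. The pooled within-group SD on the log2 scale was 0.61 for Dlk1, 0.56 for Meg3, 0.30 for Rian and 0.25 for Mirg, against a median of 0.20 over all genes tested. Of all genes tested, 97.0% had a smaller SD than Dlk1 and 95.8% a smaller SD than Meg3. In both groups replicate 3 was highest for Dlk1 and lowest for Meg3, with deviations from the group mean of 0.51 and 0.60 for Dlk1 and -0.82 and -0.34 for Meg3 in WT and Scl-/- cells. Replicate 2 was the lowest for Dlk1 in both groups, with deviations of -0.77 in WT and -0.46 in Scl-/- cells.

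**Figure D2:**
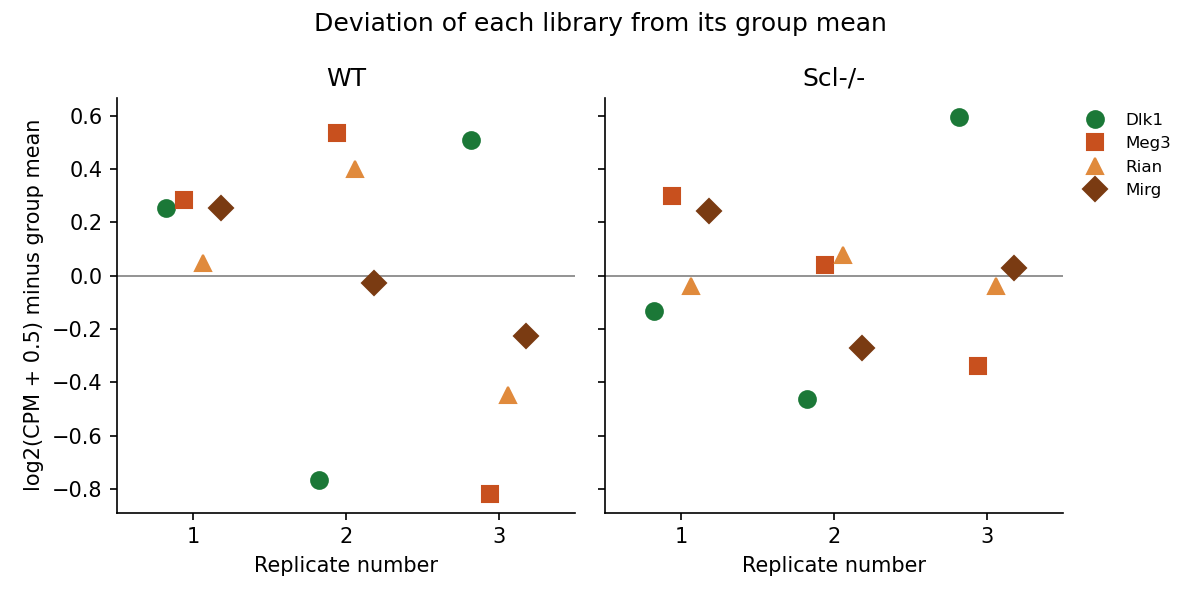
Deviation of each library from its group mean, on the log2(CPM + 0.5) scale, for the 4 genes by replicate number, in WT at left and Scl-/- at right. Dlk1 is highest in replicate 3 of both groups, at 0.51 and 0.60, where Meg3 is lowest, at -0.82 and -0.34.

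Levels were compared between genes per kilobase of annotated exon, using the union of exons of 5657 bases for Dlk1, 18089 for Meg3, 8197 for Rian and 3175 for Mirg. In WT cells Dlk1 had 13.2, 6.48 and 15.8 CPM per kilobase in replicates 1 to 3, Rian 5.23, 6.69 and 3.69, Meg3 3.30, 3.93 and 1.52, and Mirg 0.885, 0.700 and 0.589. The order from high to low was therefore Dlk1, Rian, Meg3 and Mirg in replicates 1 and 3, whereas in replicate 2 Rian and Dlk1 were nearly level, at a ratio of 1.03. In Scl-/- cells Rian had 37.7, 40.8 and 37.7 CPM per kilobase, Meg3 29.4, 24.6 and 18.9, Mirg 7.66, 5.31 and 6.59, and Dlk1 3.72, 2.94 and 6.23. The order was Rian, Meg3, Mirg and Dlk1 in all 3 Scl-/- libraries, although in replicate 3 Mirg was only 1.06 times the level of Dlk1.

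Dlk1 was set against the noncoding genes in each library as its log2 level per kilobase minus the mean of the log2 levels per kilobase of Meg3, Rian and Mirg. This difference was 2.34, 1.21 and 3.29 in WT 1 to 3 and -2.43, -2.54 and -1.42 in Scl-/- replicates 1 to 3. Dlk1 thus stood above the mean of the noncoding genes in every WT library and below it in every Scl-/- library. The group means were 2.28 ± 1.04 (SD, n = 3) and -2.13 ± 0.62 (SD, n = 3). The change from WT to Scl-/- cells was -4.41, of which the difference of Dlk1 itself was -1.42.

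**Figure D3:**
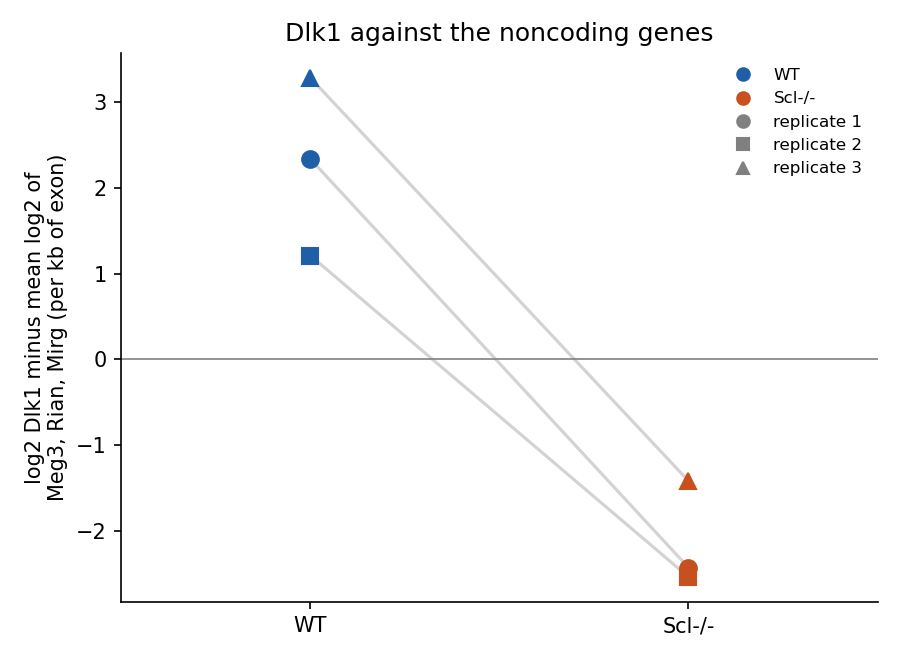
log2 level of Dlk1 minus the mean log2 level of Meg3, Rian and Mirg, per kilobase of exon, in each library, with grey lines joining same-numbered libraries. WT libraries lie between 1.21 and 3.29 and Scl-/- libraries between -2.54 and -1.42.

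Among the noncoding genes themselves the proportions shifted far less than the levels. The level of Meg3 per kilobase was 0.631, 0.587 and 0.412 times that of Rian in WT replicates 1 to 3, and 0.782, 0.602 and 0.502 times in Scl-/- replicates 1 to 3. These ratios overlapped between the groups, with the lowest in replicate 3 of both, but within each same-numbered pair the ratio was higher in the Scl-/- library. Rian was 5.91, 9.56 and 6.27 times the level of Mirg per kilobase in WT and 4.91, 7.68 and 5.72 times in Scl-/- cells, which overlapped as well, while within each pair the ratio was lower in the Scl-/- library.

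Other genes within the domain were also higher in Scl-/- cells. A gene is given as called where its log2 difference went beyond 0.48 in either direction and its adjusted p was below 0.05. Rtl1, a paternally expressed gene derived from a retrotransposon and needed for the placenta, lies on the minus strand between Meg3 and Rian and measured 2.91, 2.40 and 1.72 CPM in WT 1 to 3 against 16.7, 8.65 and 7.05 CPM in Scl-/- 1 to 3. All Scl-/- libraries were above all WT libraries, so that this paternally expressed gene was higher where the maternally expressed RNAs were higher and Dlk1 was lower. Its difference was 1.92 on the log2 scale (standard error 0.33; adjusted p = 0.0299 by limma with the Benjamini-Hochberg method). The maternal copy is known to express an RNA antisense to Rtl1, and since the sources used here do not state whether counting used the strand, reads of the 2 strands cannot be told apart. The call was lost without WT replicate 1 (limma's adjusted p = 0.116), without WT replicate 2 (0.0535), without WT replicate 3 (0.0956) and without Scl-/- replicate 2 (0.0898).

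Further entries share their exons with the noncoding genes and are not separate evidence. Gm17639, on the minus strand, lies wholly within exons of Meg3 and measured 3.49, 4.47 and 2.45 CPM in WT 1 to 3 against 36.8, 30.6 and 31.9 CPM in Scl-/- 1 to 3. Mir1906-1 (80 bases, within an exon of Meg3) ranged from 0.510 to 0.978 CPM in WT and from 5.78 to 7.89 CPM in Scl-/- cells. The small nucleolar RNA gene Gm24895 (74 bases, within an exon of Rian) ranged from 1.60 to 2.38 CPM in WT and from 12.1 to 13.6 CPM in Scl-/- cells. All 3 were high in every Scl-/- library, and their reads cannot be told apart from those of their hosts.

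The microRNAs of the domain were not measured as mature RNAs here, and some of their sequences are shown to identify them. RefSeq places 112 mature microRNA entries between Dlk1 and the end of Mirg, and most of their seeds (bases 2 to 8) occur once: the entries hold 102 different seeds, of which 9 are shared by microRNAs of different names. Those shown are miR-1906, whose gene lies within Meg3 and has an entry in the table, and 2 pairs with a shared seed, whose genes lie between Rian and Mirg and in neither, with the seed in capitals.
mmu-miR-1906: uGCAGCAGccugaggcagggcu
mmu-miR-379-5p: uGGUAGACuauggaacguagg
mmu-miR-1193-5p: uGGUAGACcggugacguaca
mmu-miR-379-3p: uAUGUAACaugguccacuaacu
mmu-miR-411-3p: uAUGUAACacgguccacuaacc

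Outside the domain the differences of the neighbouring genes lay near 0. Of 15 genes tested within 1 Mb of either end, limma called 0, without or with the replicate block (the replicate number as a term in the model), while 1 had an unadjusted p under 0.05 without and 4 with the block. Over all genes tested, 17.7% had an unadjusted p under 0.05 without and 36.9% with the block. Of all genes tested, 330 of 13991 were called without and 1768 with the block. The median log2 difference of the 15 neighbouring genes was -0.11, against 0.01 over all genes tested, and they ranged from -0.29 to 0.17. The nearest on the Dlk1 side was Begain, 399 kb away, a gene of neuronal synapses that is imprinted in sheep, with 2.56, 3.11 and 2.99 CPM in WT 1 to 3 and 1.78, 2.95 and 2.54 CPM in Scl-/- 1 to 3. Its groups overlapped, and its log2 difference was -0.23 (standard error 0.21, limma's adjusted p = 0.674). Next on that side came Wdr25 at -0.29, Wars at 0.03, Slc25a47 at 0.17 and Slc25a29 at -0.11. On the Mirg side the nearest was Ppp2r5c, 698 kb away, a regulatory subunit of protein phosphatase 2A, with a log2 difference of -0.11 (standard error 0.09, limma's adjusted p = 0.643), followed by Dync1h1 at -0.26, Gm17111 at -0.19, Hsp90aa1 at 0.03 and Wdr20a at -0.24. Dio3, the paternally expressed gene at the far end of the domain, was not analysed here. Over the 469 genes tested on chromosome 12 besides Dlk1, Meg3, Rian and Mirg, the other domain and flanking genes included, the median log2 difference was -0.02.

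**Figure D4:**
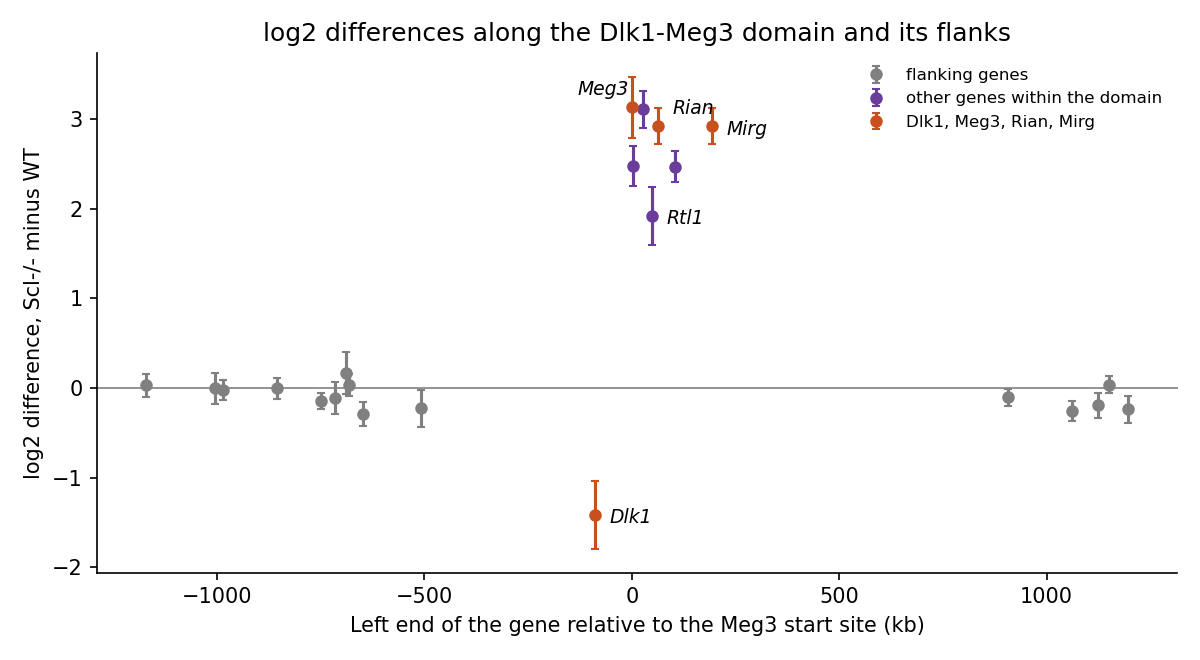
log2 difference (Scl-/- minus WT, bars are standard errors, n = 3 per group) of genes by the distance of their left end from the Meg3 start site, in kilobases. Meg3, Rian, Mirg and the other genes within the domain lie between 1.92 and 3.13, Dlk1 lies at -1.42, and the flanking genes lie between -0.29 and 0.17.

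Imprinted genes elsewhere in the genome were set beside the domain in 2 lists, by the parental copy known to be expressed. Over all genes tested, 0.793% were called higher and 1.57% lower in Scl-/- cells without the replicate block, and 6.04% higher and 6.60% lower with it. Of 19 paternally expressed genes tested, 14 were higher and 5 lower in Scl-/- cells, with a median log2 difference of 0.55, and 3 were called higher and 0 lower without the block, 10 higher and 1 lower with it. Of 18 maternally expressed genes tested, 6 were higher and 12 lower, with a median of -0.21, and 1 was called higher and 3 lower without the block, 3 higher and 7 lower with it. Outside the domain the maternally expressed list thus had a median below 0, opposite in sign to the differences of Meg3, Rian and Mirg. Genes were counted singly, also where several lie on the same chromosome, such as Snrpn, Ndn, Magel2, Mkrn3 and Peg12 on chromosome 7. Distances between listed genes were not examined, so the counts need not be counts of separate loci.

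Grb10, which encodes an adaptor that restrains insulin receptor signalling, measured 679, 576 and 601 CPM in WT 1 to 3 against 3.14, 4.50 and 3.20 CPM in Scl-/- 1 to 3. It was far lower in every Scl-/- library than in any WT library, with a log2 difference of -7.25 (standard error 0.15, limma's adjusted p = 2.1e-06). Zim1 differed by -3.17 (limma's adjusted p = 0.00139) and Igf2r, the receptor that clears IGF2, by -1.13 (limma's adjusted p = 0.00857, 0.0666 and not called without WT 1). Among the genes called higher were Nnat at 2.36 (limma's adjusted p = 0.0264) and Blcap at 0.75 (limma's adjusted p = 0.0272). Nnat lies within Blcap, so reads of the 2 genes may be shared. Both calls were lost in 5 of the 6 fits that left out a single library, with the highest adjusted p without WT 1 (limma, 0.142 for Nnat and 0.16 for Blcap). Zrsr1 differed by 0.93 (limma's adjusted p = 0.0299), a call lost without WT 1 (0.168), WT 3 (0.0967), Scl-/- 2 (0.111) or Scl-/- 3 (0.0966). Mkrn3 measured 1.76, 1.78 and 2.38 CPM in WT 1 to 3 against 4.04, 4.23 and 5.24 CPM in Scl-/- 1 to 3 (limma's adjusted p = 0.0425), a call lost in all 6 such fits, with adjusted p from 0.058 (without Scl-/- 1) to 0.233 (without WT 1). Igf2, a fetal growth factor, measured 1701, 942 and 1466 CPM in WT 1 to 3 against 1196, 106 and 127 CPM in Scl-/- 1 to 3, so that Scl-/- replicate 1 lay within the WT range and the groups overlapped. Its log2 difference was -2.39 (limma's adjusted p = 0.204, or 0.0102 with the replicate block). When Scl-/- 1 was left out, Igf2 was called without the block as well, at -3.51 (limma's adjusted p = 0.00884). With all 6 libraries and the intensity trend, further genes were called with the block and not without it. Some of these were also called in single fits without the block, such as Snrpn, Cdkn1c and Phlda2 without Scl-/- 1. Among the paternally expressed were Snrpn (log2 difference 1.01, limma's adjusted p = 4.0e-04 with the block and 0.0809 without), Sgce (0.95, 0.0012 and 0.0668), Plagl1 (0.89, 0.0131 and 0.212) and Magel2 (0.72, 0.00568 and 0.0737). Peg12 (0.68, 0.00459 and 0.0545), Ndn (0.58, 0.00299 and 0.263) and Peg3 (0.55, 0.00521 and 0.194) were the others. Without the block, Peg12 was called when the intensity trend was left out (limma's adjusted p = 0.0353). The difference of Ndn was 0.38 without Scl-/- 3. Among the maternally expressed were Asb4 (1.09, limma's adjusted p = 1.7e-04 with the block and 0.138 without) and Commd1 (0.54, 0.00389 and 0.125), called higher. Called lower were Cdkn1c (-2.05, 0.0231 and 0.215), Ppp1r9a (-1.07, 0.00108 and 0.0882) and Phlda2 (-0.87, 0.0217 and 0.116). Cdkn1c measured 98.1, 92.0 and 98.3 CPM in WT 1 to 3 against 92.1, 14.2 and 8.75 CPM in Scl-/- 1 to 3, so that Scl-/- 1 lay within the WT range, as for Igf2. H19 differed by -0.77 (limma's adjusted p = 0.33, or 2.3e-04 with the block), and by -0.43 when Scl-/- 2 was left out.

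**Figure D5:**
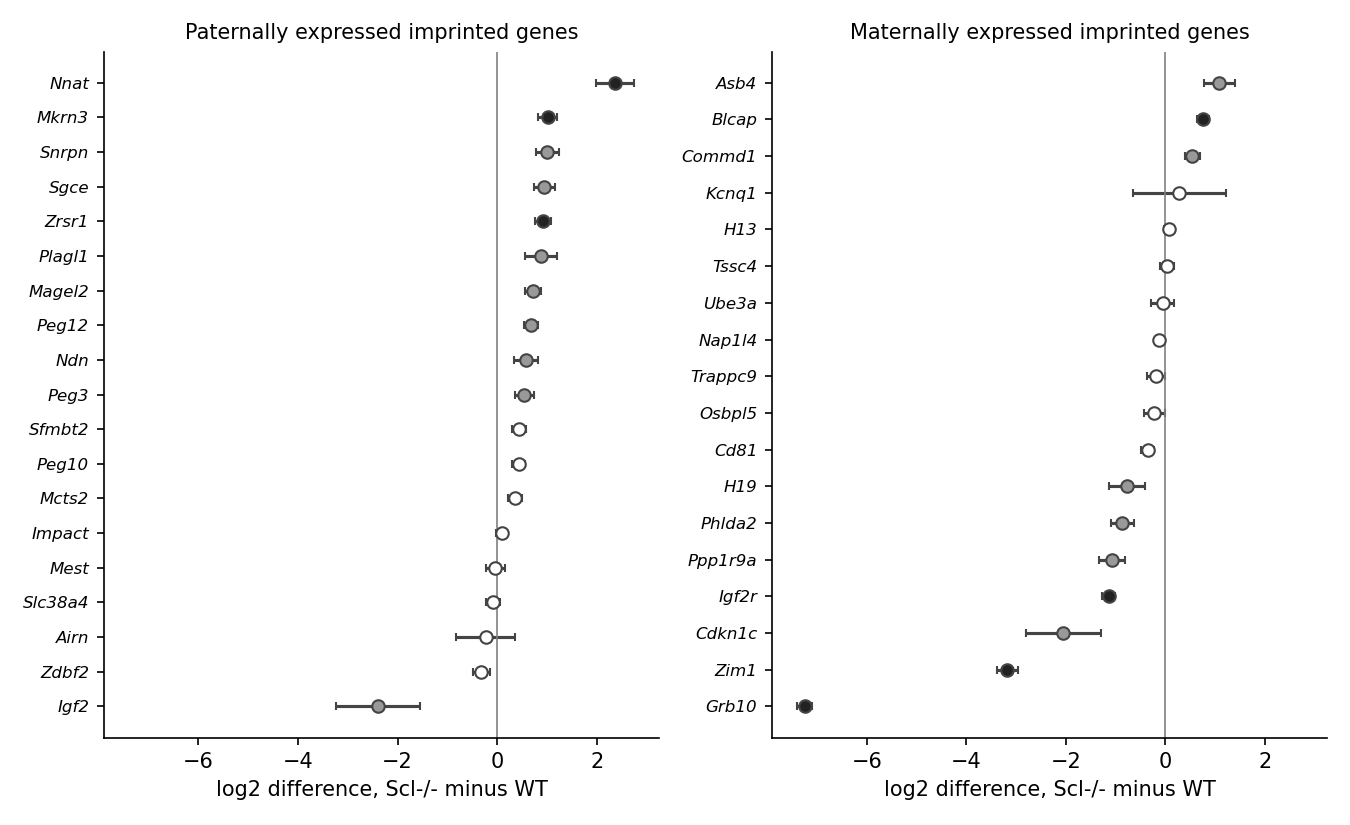
log2 difference (Scl-/- minus WT, bars are standard errors, n = 3 per group) of paternally expressed imprinted genes at left and maternally expressed ones at right, the domain left out. With all 6 libraries and the intensity trend, black points were called without the replicate block, grey points with it and not without, and white points in neither. Grb10 lies at -7.25 and Nnat at 2.36.

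Regulators that maintain imprints were mostly close to 0 in difference. Of 23 tested, 7 were higher and 16 lower, with a median log2 difference of -0.06; 1 was called higher and 1 lower without the block (beside 0.793% higher and 1.57% lower of all genes tested), 1 higher and 3 lower with it (beside 6.04% and 6.60%). Zfp57, a zinc finger protein that protects the methylated copy of imprint control regions, measured 51.2, 55.0 and 55.4 CPM in WT 1 to 3 against 80.7, 78.0 and 85.9 CPM in Scl-/- 1 to 3, with groups that did not overlap. Its log2 difference was 0.59 (standard error 0.09, limma's adjusted p = 0.0236). The call of Zfp57 was lost in each fit that left out a single library other than Scl-/- 1, with adjusted p from 0.0518 (without WT 2) to 0.158 (without WT 1). Aff3, which is known to bind the control regions of imprinted domains including that of Dlk1 and Meg3, measured 148.5, 101.5 and 107.2 CPM in WT 1 to 3 against 42.1, 38.0 and 37.6 CPM in Scl-/- 1 to 3. Every Scl-/- library was lower than any WT library, and the log2 difference was -1.57 (standard error 0.16, limma's adjusted p = 0.00519). Tet2 and Tet3, which oxidise methylated cytosine, differed by -0.88 and -0.81 and were called with the block only (limma's adjusted p = 4.9e-04 and 7.9e-04, against 0.0809 and 0.11 without it). Of regulators not called and chosen after their values were seen, Dnmt1, the maintenance methyltransferase, differed by -0.10 (limma's adjusted p = 0.817), Trim28 by -0.01 (limma's adjusted p = 0.991) and Uhrf1 by -0.05 (limma's adjusted p = 0.888). Whether any of these genes bears on the domain was not tested.

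DLK1 is related to the ligands of NOTCH receptors, and the differences of genes of that pathway lay on both sides of 0. Of 15 tested, 8 were higher and 7 lower, with a median log2 difference of 0.01; 1 was called higher and 0 lower without the block (beside 0.793% higher and 1.57% lower of all genes tested), 3 higher and 2 lower with it (beside 6.04% and 6.60%). Jag1, a NOTCH ligand, measured 21.2, 21.8 and 20.0 CPM in WT 1 to 3 against 33.3, 30.3 and 31.7 CPM in Scl-/- 1 to 3, a difference of 0.59 (limma's adjusted p = 0.0396) that was not called in any fit leaving out a single library (limma's adjusted p from 0.0677 without Scl-/- 1 to 0.207 without WT 1). With the block only, the ligands Dll3 (1.92, limma's adjusted p = 3.6e-04) and Dll1 (1.17, 0.0309) were called higher and the receptor Notch2 (-0.63, 0.00163) and the target gene Hey2 (-1.65, 4.3e-04) lower. Without the block and with single libraries left out, the difference of Dll1 ranged from 0.20 (without Scl-/- 2) to 2.28 (without Scl-/- 1).

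Levels of cell type markers differed between the groups, and whether this bears on the values of the domain was not tested; fewer cells of a type and less RNA per cell cannot be told apart. Of 11 FLK1+ mesoderm markers, 2 were called higher (Mixl1 and Etv2) and 1 lower (Gata2) without the block, 7 higher and 2 lower with it. With the block, Pdgfra, T, Mesp1, Mixl1, Etv2, Eomes and Tbx6 were called higher, and Lmo2 and Gata2 lower. The paper takes Mesp1 as a cardiac and Tbx6 as a paraxial regulator. Kdr itself differed by -0.15 and was called in neither fit. Over all genes tested, 0.793% were called higher and 1.57% lower without the block, and 6.04% and 6.60% with it. Without WT 1 none of Mixl1 (limma's adjusted p = 0.183), Etv2 (0.113) and Gata2 (0.073) was called; of the fits leaving out a library, Mixl1 kept its call only in that without Scl-/- 1 (0.0282), and it was not called without the intensity trend (0.0584); Etv2 also lost its call without Scl-/- 2 (0.0742) or Scl-/- 3 (0.0573). The summed level of this list was 2505, 2703 and 2813 CPM in WT 1 to 3 against 2715, 3219 and 3422 CPM in Scl-/- 1 to 3, with Kdr the most abundant. Of 8 haematopoietic and endothelial markers tested, 5 were called lower without the block (Cdh5, Itga2b, Gata1, Hbb-bh1 and Cd34) and 8 with it. These counts stand beside 1.57% of all genes tested called lower without the block and 6.60% with it. The count of 5 was 0 without WT 1, where Cdh5 had an adjusted p of 0.171 and Hbb-bh1 of 0.189 (limma), 2 without WT 3, Scl-/- 1 or Scl-/- 2, and 4 without Scl-/- 3. The difference of Hbb-bh1, below 2 CPM in every library, was -1.77 and depended on the pseudocount, with -3.67 at 0.1 and -1.15 at 1, where it was not called (limma's adjusted p = 0.0562). Their summed level was 221, 116 and 284 CPM in WT 1 to 3 against 43.1, 18.9 and 58.3 CPM in Scl-/- 1 to 3. Cdh5 was the most abundant of them in every WT library, and Hbb-bh1 was at 0 in the 3 Scl-/- libraries. WT replicate 2, with the lowest sum of these markers among WT libraries, was also the lowest for Dlk1, and Scl-/- replicate 2 was the lowest of its group for both. Summed trophoblast markers were lowest in replicate 2 of both groups too, and summed pluripotent and endoderm markers were highest there. Same-numbered libraries deviated together across genes, so the match with Dlk1 is not particular to haematopoietic and endothelial markers.

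Among markers of other cells, the counts stand beside 17.7% (without the block) and 36.9% (with it) of all genes tested with an unadjusted p under 0.05, and 0.793% called higher and 1.57% lower without the block, 6.04% and 6.60% with it. Of 9 pluripotent cell markers tested, 0 were called without the block (limma, 3 with an unadjusted p under 0.05) and 5 higher and 1 lower with it. Their summed level was 225, 538 and 253.5 CPM in WT 1 to 3 against 325, 932 and 699 CPM in Scl-/- 1 to 3, with Tdgf1 the most abundant. Tdgf1 alone measured 75.0, 322 and 120 CPM in WT 1 to 3 against 196, 632 and 447 CPM in Scl-/- 1 to 3. By log2 difference 5 of the 9 were higher and 4 lower (Sox2, Zfp42, Esrrb and Klf4) in Scl-/- cells. Of 4 endoderm markers, limma called 0 without the block (3 with an unadjusted p under 0.05) and 2 higher and 1 lower with it, and Gata4, which is known in cardiac mesoderm as well, carried most of each sum, with a summed level of 229.8, 318 and 244 CPM in WT and 325, 435 and 401 CPM in Scl-/- cells. Of 5 ectoderm markers, limma called 0 without the block (1 with an unadjusted p under 0.05) and 2 higher and 1 lower with it, with summed levels of 201, 236 and 234 CPM in WT and 266, 226 and 255 CPM in Scl-/- cells and Krt18 the most abundant in WT cells. Of 4 trophoblast markers, limma called 0 without the block (0 with an unadjusted p under 0.05) and 1 lower with it, with summed levels of 620.4, 504 and 677 CPM in WT and 664, 311 and 423 CPM in Scl-/- cells and Hand1, which is also among the FLK1+ mesoderm markers, carrying most of each sum.

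The genes whose log2 levels over the 6 libraries were most like those of Meg3 lay elsewhere in the genome. By Pearson's r among the 13953 genes averaging 1 CPM or more, they were Arxes1 (0.999), Cox4i2 (0.994), Cep95 (0.993), Mtmr6 (0.993) and Fem1c (0.992), whose own log2 differences ranged from 0.17 to 1.14. Rian came at rank 14 (r = 0.988) and Mirg at rank 58 (r = 0.971). For Dlk1 the most alike were Gm14284 (0.995), Ube2f (0.994), Atp2a3 (0.994), Tpcn1 (0.994) and Slc30a1 (0.992). Between Dlk1 and Meg3 the r was -0.90 over the 6 libraries. These values describe 6 points that fall into 2 groups, which sets much of each r.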

How the data were processed

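RNA-seq of 3 WT and 3 Scl-/- libraries was analysed. The authors aligned reads to mm9 with TopHat2 2.0.8b, removed duplicate read pairs, filtered by mapping quality with SAMtools 0.1.19 and deposited CPM values scaled by edgeR's TMM method; counting tool, annotation and strand setting were not given in the sources used here. The 13991 genes reaching 0.5 CPM in 3 or more libraries (all 4 members among them) were fitted with limma 3.58.1 (R 4.3.3) on log2(CPM + 0.5), which understates differences of low genes, with an intensity trend and Benjamini-Hochberg adjustment over all genes tested. The code was tested on simulated data. Positions and exons came from GENCODE on mm9. In each library 3 reads stood for 0.0615 to 0.0784 CPM. The members and lists were chosen with earlier results of these data known. Genes named were the members, Tal1, Kdr, other genes of the domain and the 5 nearest tested genes on each side. Also named were list members called or at the ends of a list, the most abundant gene of each marker list, and the 5 genes most like Meg3 and Dlk1. Dnmt1, Trim28 and Uhrf1 fall outside this rule and were chosen after their values were seen. Same-numbered libraries deviated together (r across genes of 0.587, 0.756 and 0.748), so the replicate number was also fitted as a block. Other pseudocounts, filters, scaling and left-out libraries were tried.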

Additional observations from a re-analysis of the deposited data

How the results depend on the processing

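The log2 differences of Dlk1, Meg3, Rian and Mirg, and that of Dlk1 against the noncoding genes, kept their sign and moved by less than the SD between replicates under pseudocounts of 0.1 and 1, median-ratio rescaling, the replicate block and each library left out. Without single libraries they ranged from -1.80 to -1.16 for Dlk1, 2.72 to 3.40 for Meg3, 2.70 to 3.12 for Rian, 2.80 to 3.06 for Mirg and -4.94 to -3.91 for Dlk1 against the noncoding genes. With the replicate block, the paired fit, 1768 genes were called in place of 330, all 330 among them, as were 21 imprinted genes in place of 7, 4 imprint regulators in place of 2 and 5 DLK and NOTCH genes in place of 1. Without single libraries the counts ranged from 44 (without WT replicate 1) to 384 (without Scl-/- replicate 1) genes, 2 to 8 imprinted genes, 1 to 2 regulators and 0 to 0 DLK and NOTCH genes; fewer samples entered these fits. Apart from these counts, genes named with the block and the marker lists, whose counts stand with and without it, the block changed no other call given; for the higher counts the cause was not tested. No flanking gene was called by limma under any setting run. Other filters, pseudocounts, rescaling, no intensity trend and no fold-change threshold kept each count within 1.5 times. Per kilobase of the longest annotated transcript, mean levels became 30.2 for Meg3 in Scl-/- cells, 8.13 and 60.5 for Rian and 1.21 and 10.9 for Mirg in WT and Scl-/- cells, as the lengths are shorter, and the order of the 4 genes in each library was the same. Of the 4 genes depth limits Mirg most, with 77 reads in WT replicate 3.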
